A study of Mus musculus with 4 samples.

Results

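Transcripts of the adult globins and of 6 further genes of the red cell lineage were measured in RNA of hematopoietic stem cells (HSC) and common lymphoid progenitors (CLP) of the mouse. The set had 10 genes of 12742 gene symbols in the tables: the globin genes Hba-a1, Hba-a2, Beta-s and Hbb-b1, the heme synthesis gene Alas2, the transcription factor genes Klf1 and Gata1, the receptor gene Epor and the carbonic anhydrase genes Car1 and Car2. Rows were taken by gene symbol, 8 of the 10 genes had a row in at least 1 library, and none was named in a row shared by several genes. The set was chosen from FPKM values of these same libraries, in which several of the genes had been seen to be high where the label read GRK6-/-. Differences between the libraries are therefore given as a description, with no test.

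The study asked how loss of GRK6, a kinase that phosphorylates G protein-coupled receptors, alters HSC and CLP. Its 4 RNA-seq libraries, with no replicates, covered each population once for WT and once for GRK6-/- mice, from bone marrow of C57BL/6 mice that were young adults by the study's methods (the labels give no age). HSC were gated as Lin-c-kit+sca-1+ and CLP as Lin-c-kit+sca-1+Il-7Ra+, and the mice had no treatment named in the labels. Each library pooled cDNA of 13 to 15 hand-picked cells of 3 to 4 mice, amplified cell by cell through 20 and then 10 cycles of PCR. As the study describes, the knockout mice carry a deletion of exons common to the splice forms of Grk6, and red blood cells were lysed before staining. FPKM is the number of fragments scaled by the length of the transcript and by all mapped fragments of the library. The low values of each table lay on steps that placed the depth between about 2790000 fragments, for the library labelled GRK6-/- CLP, and 4360000, for WT CLP. These are the fragments to which the values were scaled, and the study states several times more reads per population. With a higher depth, the counting intervals given here would be narrower.

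Grk6 itself went against the labels, with 42.7 FPKM in WT HSC, 89.4 in the library labelled GRK6-/- HSC, 26.9 in WT CLP and 57.6 in the library labelled GRK6-/- CLP. With 1 value per gene, the deleted exons could not be looked at apart from the rest of the transcript. The libraries are therefore named by their labels throughout, and every direction below rests on those labels. Of the genes used for the gate, Kit had 53.3 FPKM in WT HSC, 34.4 in the library labelled GRK6-/- HSC, 26.2 in WT CLP and 81.8 in the library labelled GRK6-/- CLP. Il7r had no row in WT HSC and 1.08 FPKM in the library labelled GRK6-/- HSC, against 120 in WT CLP and 75.1 in the library labelled GRK6-/- CLP. Ly6a, the gene of Sca-1, was named only in WT HSC, in a row shared by 5 genes at 1998 FPKM.

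Red cells are made in bone marrow from progenitors that HSC give rise to, along a path apart from that of the lymphoid cells which CLP give rise to. GATA1 and KLF1 bind GATA and CACCC motifs in the promoters and enhancers of erythroid genes, and erythropoietin acting through its receptor keeps the early erythroid cells alive. The receptor is present from early stages of this path, and ALAS2, heme and the adult globins accumulate late, when the alpha and beta chains are made in near balance. Carbonic anhydrases convert carbon dioxide and water to bicarbonate, and CAR1 and CAR2 are the forms of red cells.

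The promoter stretches of the genes that the results turn on are given here to show which of the motifs of GATA1 and KLF1 lie next to each start. RefSeq promoter windows were found for 8 of 10 names sought, namely Hba-a1, Hba-a2, Hbb-bs, Hbb-bt, Alas2, Klf1, Gata1 and Epor, whereas Car1 and Car2 had no entry. The windows were located by exact match in mm9, and the 250 bases before the start were used. Capitals mark 5 motifs on either strand. These are the first form of the GATA site (AGATAA), its second form (TGATAA), a site of the CACCC kind that KLF1 can bind (CCNCNCCC), the box known as CCAAT and the TATA box, searched as TATAA. Neighbouring capitals can belong to more than one match.
Hba-a2, chr11:32196242-32196491, plus strand: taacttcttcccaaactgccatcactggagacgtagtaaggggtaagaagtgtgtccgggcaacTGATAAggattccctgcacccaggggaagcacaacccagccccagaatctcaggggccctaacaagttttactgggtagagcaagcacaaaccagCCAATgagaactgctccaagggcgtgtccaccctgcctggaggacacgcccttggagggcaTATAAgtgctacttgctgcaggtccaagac
Hbb-bs, chr7:110976443-110976692, minus strand: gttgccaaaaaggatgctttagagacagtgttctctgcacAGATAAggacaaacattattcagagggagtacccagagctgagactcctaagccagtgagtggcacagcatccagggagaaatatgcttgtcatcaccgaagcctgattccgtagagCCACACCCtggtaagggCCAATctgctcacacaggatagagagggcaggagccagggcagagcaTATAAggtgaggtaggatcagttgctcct
Alas2, chrX:146981710-146981959, plus strand: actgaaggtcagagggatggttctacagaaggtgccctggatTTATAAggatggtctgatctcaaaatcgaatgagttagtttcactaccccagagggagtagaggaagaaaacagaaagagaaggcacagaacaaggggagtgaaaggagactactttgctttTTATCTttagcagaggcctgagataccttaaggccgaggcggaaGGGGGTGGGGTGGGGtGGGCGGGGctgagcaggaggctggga
Klf1, chr8:87425631-87425826, plus strand: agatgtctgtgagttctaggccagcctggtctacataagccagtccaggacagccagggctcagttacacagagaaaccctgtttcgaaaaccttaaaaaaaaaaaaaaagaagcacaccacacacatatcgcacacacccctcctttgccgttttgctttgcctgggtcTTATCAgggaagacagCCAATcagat
Gata1, chrX:7545037-7545286, minus strand: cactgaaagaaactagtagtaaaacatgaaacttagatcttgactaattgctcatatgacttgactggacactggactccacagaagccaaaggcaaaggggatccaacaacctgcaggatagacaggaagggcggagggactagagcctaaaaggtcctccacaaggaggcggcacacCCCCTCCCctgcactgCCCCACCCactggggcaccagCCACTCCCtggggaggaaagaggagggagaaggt
Epor, chr9:21768021-21768270, minus strand: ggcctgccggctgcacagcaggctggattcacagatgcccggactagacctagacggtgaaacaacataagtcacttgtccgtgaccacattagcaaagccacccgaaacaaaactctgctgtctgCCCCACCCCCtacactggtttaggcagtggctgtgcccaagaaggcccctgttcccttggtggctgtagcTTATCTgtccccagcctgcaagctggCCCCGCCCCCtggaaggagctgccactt
The Klf1 stretch stops at base 55 before the RefSeq start, where the locus given in the tables begins. GENCODE vM1 starts its models of Hba-a2, Alas2 and the beta globin gene inside the stretches shown, and it places the Gata1 stretch in an intron of its longer Gata1 model.

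AGATAA was found in 3 of the 8 windows, beside 9.99% of all 32851 promoters in the table. TGATAA, a motif added after values were seen, was found in 3 windows, those of Hba-a1, Hba-a2 and Klf1, beside 7.94%. A GATA site in either form was found in 6 of the 8 windows, and 16.6% of all promoters held one. It was missing in these letters from the windows of Hbb-bt and of Gata1 itself. CCNCNCCC was found in 5 of the 8 windows, beside 45.9% of all promoters. It occurred 4 times each in the windows of Alas2 and Epor and 3 times in that of Gata1, with several matches overlapping, and was absent from those of Hba-a1, Hba-a2 and Klf1. CCAAT was found in 5 of the 8 windows, beside 33.8% of all promoters, and TATAA in 5 of the 8, beside 22.8%. On the strand of the gene the globin windows shared an order, with the CCAAT box between 91 and 71 bases before the start and the TATA box between 30 and 23 bases before it. On the other strand the Hbb-bt window held further CCAAT matches at 80 to 76 and 36 to 32 bases and a TATAA match at 229 to 225 bases. The windows of Hba-a1 and Hba-a2 shared a run of 247 bases, so their matches are not independent of each other. A match is a description of the sequence and shows no binding.

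**Figure D1:**
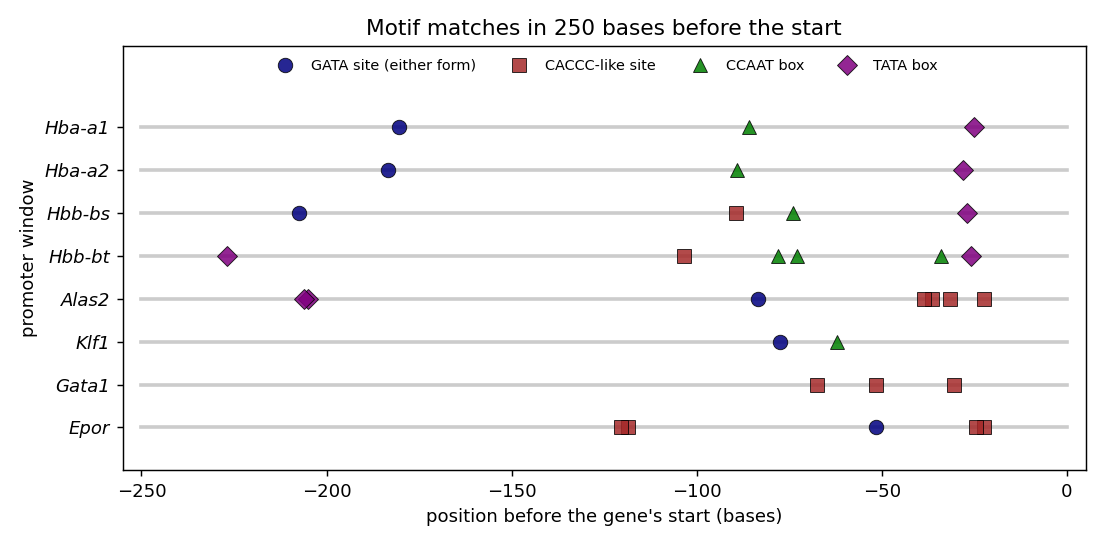
Motif matches in 250 bases before the start of 8 genes. The horizontal axis is the distance before the start in bases, each grey line is the window of one gene, and each symbol is the middle of a match on either strand. The globin windows hold a TATA box near the start and a CCAAT box further out, and that of Hbb-bt holds further matches of both. The windows of Alas2, Gata1 and Epor hold the repeated CACCC-like matches.

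All 8 genes with a row were at least 2-fold higher (log2 difference of FPKM + 1 of at least 1) in the library labelled GRK6-/- than in WT, in HSC and in CLP, and 0 were at least 2-fold lower in either. Among all 11624 genes with a value in HSC, 19.3% were higher by as much and 18.0% lower. Among all 11191 genes with a value in CLP, 26.6% were higher by as much and 23.4% lower. The median log2 difference of the 8 genes was 2.18 in HSC and 5.27 in CLP, whereas that of all genes was 0.05 in both. In HSC the differences ran from 1.18 for Alas2 to 4.59 for Car1, and in CLP from 2.09 for Car2 to 10.59 for Beta-s. At a 4-fold threshold 6 of the 8 genes were higher in HSC, beside 6.07% of all genes, and 8 in CLP, beside 13.5%. When 0.1 rather than 1 was added to FPKM, the median of the 8 genes was 2.39 in HSC and 6.79 in CLP. These counts describe the values by which the set was chosen, and nothing is read from their size. In pooled cells, more cells with a transcript and more of it per cell cannot be told apart.

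The genes divided by where they were highest. Hba-a2, Beta-s, Alas2 and Klf1 were highest in the library labelled GRK6-/- CLP, and Gata1, Epor, Car1 and Car2 in the library labelled GRK6-/- HSC. The lowest library was WT CLP for 6 of the 8 genes and WT HSC for both globin rows.

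**Figure D2:**
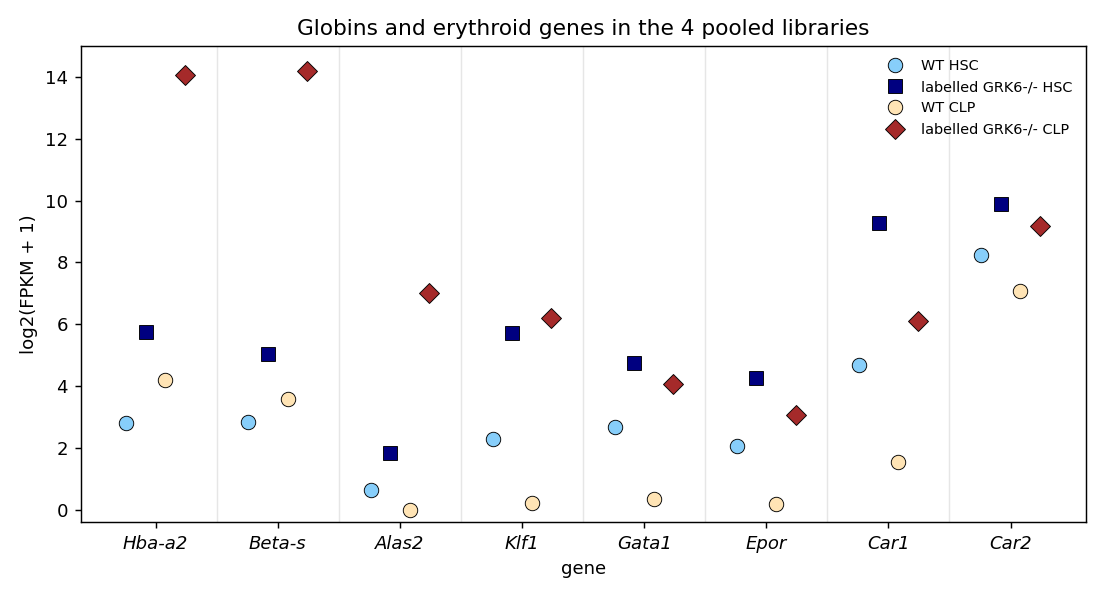
Level of each of the 8 genes in the 4 libraries. The vertical axis is log2(FPKM + 1), each point is 1 library, there are no error bars because each group had 1 library, and the point of Alas2 in WT CLP at 0 is a gene without a row. In every gene both libraries labelled GRK6-/- lie above both WT libraries, and the globins in the library labelled GRK6-/- CLP lie far above all other points.

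Both globin rows had at most 53.2 FPKM in 3 libraries and were among the most abundant transcripts of the fourth. Hba-a2, an alpha chain gene (Entrez Gene 110257), had 5.98 FPKM in WT HSC, 53.2 in the library labelled GRK6-/- HSC, 17.4 in WT CLP and 17220 in the library labelled GRK6-/- CLP. Beta-s, the adult beta chain (Entrez Gene 100503605), had 6.24 FPKM in WT HSC, 31.7 in the library labelled GRK6-/- HSC, 11.1 in WT CLP and 18659 in the library labelled GRK6-/- CLP. By FPKM they ranked at places 3 and 2 of 10131 genes in the library labelled GRK6-/- CLP, and at 6532 and 6428 of 10372 in WT HSC. The FPKM in the library labelled GRK6-/- CLP was 988 times that in WT CLP for Hba-a2 and 1680 times for Beta-s. In HSC the corresponding ratios were 8.89 and 5.07. The library labelled GRK6-/- CLP exceeded the next highest library 324-fold in Hba-a2 and 590-fold in Beta-s.

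The pair of rows made up 6.00% of the summed FPKM of the library labelled GRK6-/- CLP. In the other libraries the same share was 0.00193% in WT HSC, 0.0122% in the library labelled GRK6-/- HSC and 0.00442% in WT CLP. The ratio of alpha to beta FPKM was 0.958 in WT HSC, 1.68 in the library labelled GRK6-/- HSC, 1.57 in WT CLP and 0.923 in the library labelled GRK6-/- CLP. It was thus near 1 in the library with the most and in the library with the least globin. No error is given for these ratios, since the length of transcript behind each globin row is not known and each row spans the copies of its gene. For the other members with a row a length was assumed, as described with the processing.

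The globin rows did not separate the copies of each gene. The Hba-a2 row covered chr11:32183672-32197310 of mm9 in WT CLP and in the library labelled GRK6-/- HSC, a span that takes in both Hba-a1 and Hba-a2. In WT HSC and in the library labelled GRK6-/- CLP it began at base 32176600, inside the embryonic gene Hba-x. Hba-a1 had no row of its own in any library. The Beta-s row covered chr7:110961038-110976442 in 3 libraries, the span of the genes that the mm9 annotation calls Hbb-b2 and Hbb-b1. Its upper end lay next to the RefSeq promoter window of Hbb-bs, so Hbb-b1 was named Beta-s in these tables and had no row under its own name. In the library labelled GRK6-/- CLP the row ran on to base 110991676 and took in the embryonic gene Hbb-bh1. Of 7 embryonic and theta globin genes searched, Hbq1b alone had a row, in the library labelled GRK6-/- CLP at 16.7 FPKM, and its locus overlapped Hba-a2. Hba-x, Hbb-y, Hbb-bh1, Hbb-bh0, Hbb-bh2 and Hbq1a had no row. How fragments were divided between near-identical copies cannot be seen from the tables, so each row is best taken as its whole cluster.

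Alas2 (Entrez Gene 11656, chrX:146981960-147005165), the erythroid form of the first enzyme of heme synthesis, followed the globins at a lower level. It had 0.562 FPKM in WT HSC, 2.54 in the library labelled GRK6-/- HSC, no row in WT CLP and 128 in the library labelled GRK6-/- CLP. These values correspond to about 3, 20, 0 and 728 fragments. With no row in WT CLP no fold can be given there, and 3 fragments, the one-sided limit that a count of 0 allows, would be 0.338 FPKM. With a pseudocount of 0.1 the log2 difference in CLP was 10.32 in place of 7.01. In HSC the ratio was 4.52 with a 95% counting interval of 1.50 to 26.6. Intervals here are exact, rest on the estimated fragments and cover counting error only, because PCR copies are not independent molecules and cells were few. The library labelled GRK6-/- CLP was 50.5-fold above the library labelled GRK6-/- HSC (counting interval 31.9 to 81.7).

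All 14 genes considered for heme synthesis and iron uptake besides Alas2 had a row in every library. Of these, 7 were at least 2-fold higher in the library labelled GRK6-/- HSC and 1 lower, and 6 were at least 2-fold higher in the library labelled GRK6-/- CLP and 1 lower. The median log2 difference was 1.13 in HSC and 0.60 in CLP, and 3 of the 14 genes were 2-fold higher in both. The list was highest in the library labelled GRK6-/- CLP for 10 of the 14 genes. Among all genes, 19.3% were at least 2-fold higher and 18.0% lower in HSC, and 26.6% higher and 23.4% lower in CLP. These shares stand beside the counts of this list and of the lists below. The shares of all genes higher in both populations, or highest in a given library, are not given here. Tmem14c, a mitochondrial porphyrin carrier, had 174 FPKM in WT HSC, 497 in the library labelled GRK6-/- HSC, 323 in WT CLP and 438 in the library labelled GRK6-/- CLP. Urod, the uroporphyrinogen decarboxylase of the path, had 30.9, 90.9, 80.2 and 95.1 FPKM in the same order. Alas1, the form of the first enzyme used by other tissues, ran otherwise, with 74.0, 59.0, 119 and 61.8 FPKM.

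Klf1 and Gata1, the regulators, were high in both libraries labelled GRK6-/-. Klf1 (Entrez Gene 16596, chr8:87425827-87429194) had 3.88 FPKM in WT HSC, 51.5 in the library labelled GRK6-/- HSC, 0.160 in WT CLP and 73.3 in the library labelled GRK6-/- CLP. The values correspond to about 17, 300, 1 and 314 fragments. The ratio in HSC was 13.3 (counting interval 8.24 to 23.4). In CLP it was 460, and with 1 fragment in WT CLP its counting interval ran from 87.4 to 19440. Unlike the globins, Klf1 differed little between the libraries labelled GRK6-/-, with a ratio of CLP to HSC of 1.42 (counting interval 1.21 to 1.68).

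Gata1 (Entrez Gene 14460, chrX:7536386-7544941) had 5.45 FPKM in WT HSC, 26.1 in the library labelled GRK6-/- HSC, 0.265 in WT CLP and 15.7 in the library labelled GRK6-/- CLP. About 30, 189, 2 and 83 fragments stood behind these values. The ratio was 4.80 in HSC (counting interval 3.25 to 7.30) and 59.1 in CLP (17.4 to 544). The library labelled GRK6-/- CLP held 0.600 times the FPKM of the library labelled GRK6-/- HSC (counting interval 0.456 to 0.778), the reverse of the order of Klf1.

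Other factors that act with GATA1 and KLF1 were listed too, and all 14 had a row in every library. In HSC 3 were at least 2-fold higher and 2 lower in the library labelled GRK6-/-, with a median log2 difference of -0.33. In CLP 7 were higher and 1 lower, with a median of 0.84. Gfi1b and Zfpm1, a repressor and a partner of GATA1 named after their values were seen, were the 2 of the 14 that were higher in both. Gfi1b had 7.66 FPKM in WT HSC, 25.8 in the library labelled GRK6-/- HSC, 3.22 in WT CLP and 24.7 in the library labelled GRK6-/- CLP, and Zfpm1 had 3.70, 8.72, 3.70 and 9.87. Lmo2, a bridging protein of the GATA1 complex, had 414 FPKM in WT HSC, 77.2 in the library labelled GRK6-/- HSC, 251 in WT CLP and 323 in the library labelled GRK6-/- CLP. Myb, a factor of proliferating progenitors, had 128, 101, 114 and 287 FPKM in the same order. Lyl1, a relative of Tal1, had 67.7, 37.6, 25.9 and 112 FPKM. Lmo2, Myb and Lyl1 were each highest in a library other than that labelled GRK6-/- HSC.

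Epor (Entrez Gene 13857, chr9:21763343-21768020), the receptor of erythropoietin, had 3.19 FPKM in WT HSC, 18.0 in the library labelled GRK6-/- HSC, 0.131 in WT CLP and 7.43 in the library labelled GRK6-/- CLP. These are about 17, 125, 1 and 38 fragments. The ratio was 5.65 in HSC (counting interval 3.36 to 9.90) and 56.7 in CLP, where 1 fragment in WT CLP left a counting interval of 10.03 to 2406. The library labelled GRK6-/- CLP held 0.413 times the FPKM of the library labelled GRK6-/- HSC (counting interval 0.280 to 0.600), as in Gata1.

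Of 12 genes that act downstream of the receptor, 3 were at least 2-fold higher and 2 lower in the library labelled GRK6-/- HSC, and 5 higher and 3 lower in the library labelled GRK6-/- CLP. The median log2 difference was -0.03 in HSC and 0.01 in CLP, close to that of all genes, and 1 of the 12 was higher in both. Cish, an inhibitor that STAT5 induces, had 3.48 FPKM in WT HSC, 1.87 in the library labelled GRK6-/- HSC, 29.4 in WT CLP and 98.0 in the library labelled GRK6-/- CLP. Ptpn6, a phosphatase that ends signalling of the receptor, had 52.1, 64.0, 55.8 and 49.7 FPKM in the same order. Stat5a, a transcription factor that the receptor activates, had 13.0, 33.6, 40.9 and 4.07 FPKM, and Jak2, the kinase bound to the receptor, had 8.27, 3.52, no row and 9.21, a gene named after its values were seen.

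Car1 and Car2, cytosolic carbonic anhydrases, were the members with the highest levels in HSC. Car1 (Entrez Gene 12346, chr3:14766214-14808365) had 24.5 FPKM in WT HSC, 612 in the library labelled GRK6-/- HSC, 1.94 in WT CLP and 67.3 in the library labelled GRK6-/- CLP. The ratio was 25.0 in HSC (counting interval 20.0 to 31.3) and 34.7 in CLP (18.4 to 73.0), from about 84 and 2746 fragments in HSC and 10 and 221 in CLP. Car1 stood at place 134 of 10860 genes in the library labelled GRK6-/- HSC, above both globins there. The library labelled GRK6-/- CLP held 0.110 times its FPKM in the library labelled GRK6-/- HSC (counting interval 0.0951 to 0.126), the lowest such ratio of the 8 genes.

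Car2 (Entrez Gene 12349, chr3:14886426-14900772 in the library labelled GRK6-/- CLP) had the smallest range. It had 299 FPKM in WT HSC, 955 in the library labelled GRK6-/- HSC, 134 in WT CLP and 577 in the library labelled GRK6-/- CLP. The ratio was 3.19 in HSC (counting interval 3.02 to 3.37) and 4.29 in CLP (4.00 to 4.62). Car2 was thus the one member with over 100 FPKM in all 4 libraries.

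Other members of the family were listed as well. In the mm9 annotation Car13, Car1, Car3 and Car2 lie within 259.0 kb of chromosome 3. Car3 had 11.7 FPKM in WT HSC, 2.38 in the library labelled GRK6-/- HSC, 4.16 in WT CLP and 3.78 in the library labelled GRK6-/- CLP, and Car13 had 4.46 and 2.91 in the HSC libraries and no row in either CLP library. Of 14 further carbonic anhydrase genes, 5 had a row. In HSC 1 of them was at least 2-fold higher and 2 lower, with a median log2 difference of -0.48. In CLP 0 of 4 measured were higher and 2 lower, with a median of -1.24. Car9, a membrane-bound form, had 3.69, 15.8, 26.7 and 5.15 FPKM in the order above, and Car14 had 16.3, 7.42, 13.5 and no row.

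**Figure D3:**
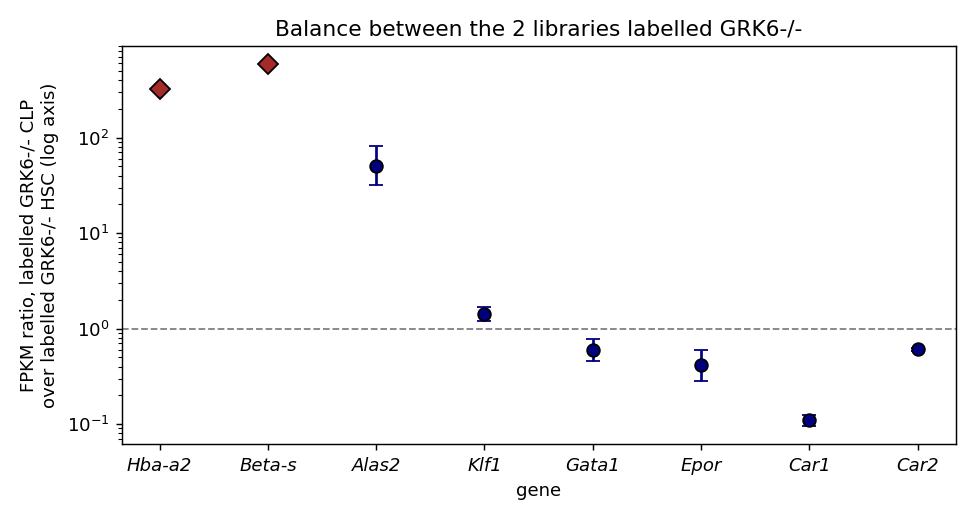
FPKM in the library labelled GRK6-/- CLP divided by that in the library labelled GRK6-/- HSC, on a log axis, for each of the 8 genes. Circles carry 95% counting intervals from the estimated fragments and diamonds are globin rows without an interval. The ratios run from 590 for Beta-s through 1.42 for Klf1 to 0.110 for Car1, and the dashed line marks equal levels.

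Read across the 8 genes, the libraries labelled GRK6-/- differed from each other in the balance between globins with Alas2 and the remaining genes. The ratio of CLP to HSC was 590 for Beta-s, 324 for Hba-a2 and 50.5 for Alas2. It was 1.42 for Klf1, 0.605 for Car2, 0.600 for Gata1, 0.413 for Epor and 0.110 for Car1. Counting intervals of neighbours in this order did not overlap between Alas2 and Klf1, between Klf1 and Car2 or between Epor and Car1, and they did overlap among Car2, Gata1 and Epor. Between the WT libraries the ratio of CLP to HSC was above 1 for Hba-a2 (2.91) and Beta-s (1.78) and below 1 for the others with a row in both, from 0.0411 for Klf1 and Epor to 0.449 for Car2.

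**Figure D4:**
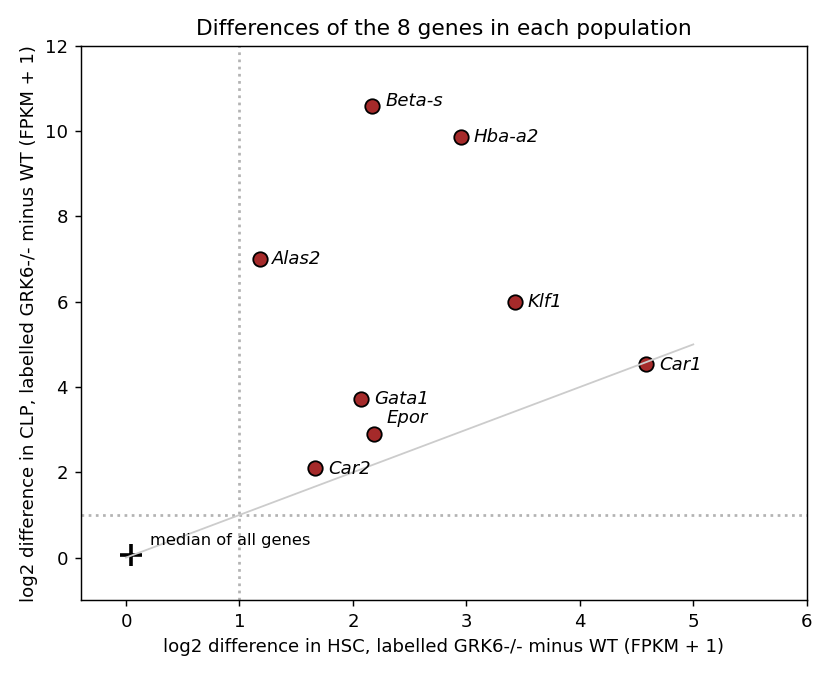
Log2 difference of FPKM + 1, library labelled GRK6-/- minus WT, in HSC on the horizontal and in CLP on the vertical axis, with 1 point per gene. Dotted lines mark a 2-fold difference, the grey line marks equal differences and the cross marks the medians of all genes, 0.05 in each population. Car1 lies next to the line of equal differences, with 4.59 and 4.54 (4.64 and 5.05 with a pseudocount of 0.1), and the globins and Alas2 lie far above it.

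Genes of the red cell membrane and of the skeleton beneath it also differed between the libraries. All 18 genes considered had a row in the library labelled GRK6-/- CLP, 6 in WT CLP, 10 in WT HSC and 14 in that labelled GRK6-/- HSC. Of all 12417 genes, 10131, 9866, 10372 and 10860 had a row in the same order. Of 15 membrane and skeleton genes measured in HSC, 9 were at least 2-fold higher in the library labelled GRK6-/- and 0 lower, with a median log2 difference of 2.77. Of 18 measured in CLP, 16 were higher and 0 lower, with a median of 3.86, and 9 were higher in both. Their summed FPKM was 76.7 in WT HSC, 337 in the library labelled GRK6-/- HSC, 63.6 in WT CLP and 410 in the library labelled GRK6-/- CLP. The list was written with earlier values of the members known.

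Some of these genes were high only where the globins were. Slc4a1, the anion exchanger band 3, had 0.0752 FPKM in WT HSC, no row in the library labelled GRK6-/- HSC or in WT CLP, and 50.9 in the library labelled GRK6-/- CLP. Spnb1 (erythroid beta spectrin), Epb4.9 (dematin) and Epb4.2 (protein 4.2) had a row in the library labelled GRK6-/- CLP alone, at 13.3, 16.3 and 3.72 FPKM. Others had a row in both libraries labelled GRK6-/- and in neither WT library. These were Cldn13, a claudin, with 32.3 FPKM in HSC and 40.5 in CLP, Rhag, the Rh-associated glycoprotein, with 17.6 and 7.48, Tspo2, a translocator protein, with 49.7 and 3.60, and Add2, beta adducin, with 6.38 and 1.85. Rhd, the Rh blood group protein, had 10.6 FPKM in WT HSC, 61.4 in the library labelled GRK6-/- HSC, 0.162 in WT CLP and 64.2 in the library labelled GRK6-/- CLP. Gypc, glycophorin C, had 30.2, 32.7, 51.4 and 30.6 FPKM in the same order. It was 1 of 2 genes of the list that differed by less than 2-fold in CLP, and 1 of 6 in HSC.

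**Figure D5:**
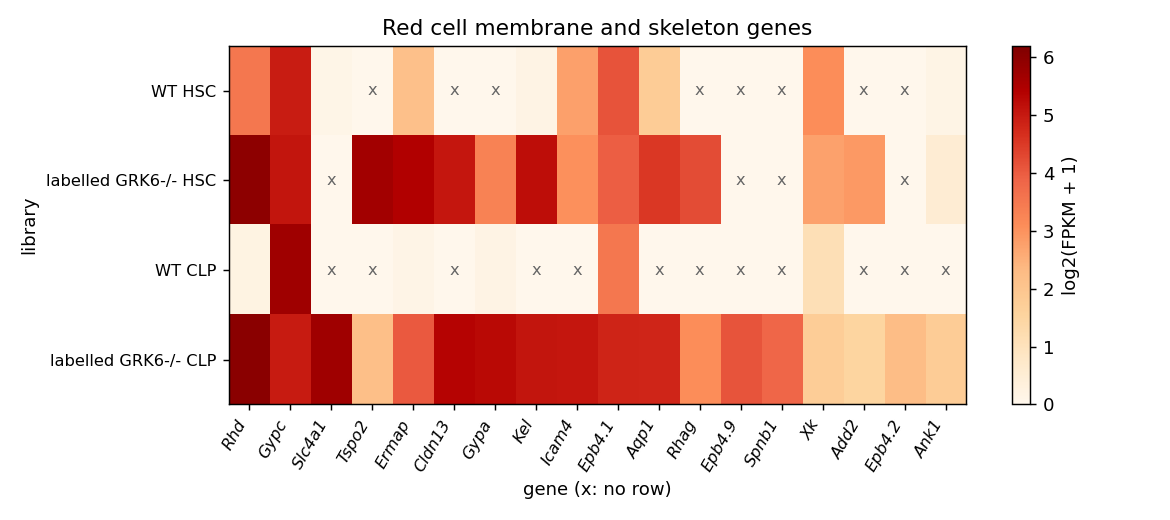
Levels of 18 red cell membrane and skeleton genes (columns) in the 4 libraries (rows). Colour gives log2(FPKM + 1) on the scale at the right, and x marks a gene without a row. The bottom row, the library labelled GRK6-/- CLP, has no x, and the row of WT CLP has the most.

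Of 14 other proteins high in erythroid cells, 12 had a row, and Ahsp and Nxpe2 had none. In the library labelled GRK6-/- HSC 7 were at least 2-fold higher and 1 lower (median log2 difference 1.30), and in the library labelled GRK6-/- CLP 8 were higher and 3 lower (median 1.67). Blvrb, a biliverdin reductase of red cells, had 20.6 FPKM in WT HSC, 313 in the library labelled GRK6-/- HSC, 1.27 in WT CLP and 354 in the library labelled GRK6-/- CLP. Prdx2, the main peroxiredoxin of red cells, had 366, 529, 327 and 817 FPKM in the same order. Mt1, a metallothionein, had 229, 609, 114 and 55.2 FPKM. Rhd is on this list as well as on that of the membrane.

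The genes whose profile over the 4 libraries was most like that of a member were sought among 7705 genes with at least 10 FPKM in a library. Likeness was the distance between log2(FPKM + 1) profiles, each centred on its mean, over only 4 libraries. Nearest to Klf1 outside the set were Gna12, Aqp1, Rhd, Blvrb, Hint3 and Siglec5, at distances of 0.891 to 1.31. Aqp1 is the water channel of the red cell membrane, and its FPKM was 2.42 in WT HSC, 22.4 in the library labelled GRK6-/- HSC, 26.8 in the library labelled GRK6-/- CLP and without a row in WT CLP. Nearest to Car1 were Ermap, Fam132a, Mfsd2b, C1galt1c1, Rab4a and Kri1, at 1.75 to 2.27. Ermap is an erythroid membrane protein and had 3.38, 42.6, 0.0987 and 15.3 FPKM.

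Hba-a2 was closest to Beta-s, at a distance of 0.759. The nearest genes outside the set were H2-Aa, Klk1, Igll1, Gstm4, Ccr6 and 1300017J02Rik, at 2.42 to 3.47. H2-Aa, a chain of MHC class II, had 336 FPKM in the library labelled GRK6-/- CLP against 6.70 in the library labelled GRK6-/- HSC, 1.22 in WT CLP and no row in WT HSC. Igll1, a surrogate light chain of B cell precursors, had 226 FPKM in the library labelled GRK6-/- CLP, 2.20 in WT CLP and no row in HSC. H2-Aa had the highest FPKM of the 6 in that library, far below that of Hba-a2. With a pseudocount of 0.1 in place of 1, 2 of the 6 genes remained among the 6 nearest to Hba-a2, 4 of those of Klf1 and 1 of those of Car1, so the names depend on how low values are treated.

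Marker genes of other cell types moved with the libraries too. Of 7 erythroid markers outside the set, 3 had a row in WT HSC, 4 in the library labelled GRK6-/- HSC, 3 in WT CLP and 6 in the library labelled GRK6-/- CLP, with summed FPKM of 19.2, 94.6, 4.69 and 193. Ahsp, the gene of the alpha globin chaperone, had no row in any library. Of 8 B cell markers, 1, 3, 6 and 6 had a row in the same order, with sums of 41.9, 35.5, 115 and 968, and Pax5 and Ms4a1 had none. Of 8 megakaryocyte markers, 5, 5, 3 and 5 had a row, with sums of 156, 16.4, 13.5 and 117. Of 11 neutrophil and monocyte markers, 9, 8, 9 and 9 had a row, with sums of 17893, 11356, 9389 and 7875. These sums do not speak for each marker. In the library labelled GRK6-/- CLP 3 of 11 measured were at least 2-fold higher and 2 lower, and in that labelled GRK6-/- HSC 0 of 9 were higher and 4 lower. Of 7 T and NK cell markers, 3, 3, 1 and 2 had a row, with sums of 17.7, 17.6, 0.257 and 10.03, and Cd8a and Ncr1 had none. Of 6 mast cell and basophil markers, 2, 2, 1 and 1 had a row, with sums of 135, 123, 22.4 and 0.801, and Fcer1a, Ms4a2, Prss34 and Cma1 had none. The part of such cells in the levels of the globins and erythroid genes was not tested.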

How the data were processed

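The authors aligned reads to mm9 with TopHat 1.4.0 (submitters' processing notes) and deposited 1 FPKM value per gene and library. The study names the Tuxedo suite for its expression values, and the version of the program that gave FPKM and its annotation are not given in the sources used here. From these tables, rows with the same symbol were summed and a gene without a row was set to 0. The 4 tables held 10056 to 11060 rows, of which 54 to 74 named several genes, and the genes so named were left out, which left 12417. Differences are log2 of (FPKM + 1) in the library labelled GRK6-/- over WT, which understates those of low genes, and a difference of at least 1 (2-fold) was counted. Each group had 1 library and the members were chosen on these contrasts, so no test was made.

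Depth was estimated from FPKM values under 0.3, taken over genes for which GENCODE vM1 holds 1 transcript and this is 1500 bp or longer. Of these values 74.4% to 81.6% lay within 10% of 1, 2 or 3 fragments. The estimate gave the number of fragments for all members but the globins and exact intervals (Poisson for a level, binomial for a ratio), which cover counting error only. Each of these members was given the length of its longest coding transcript in GENCODE vM1. The length behind its deposited FPKM is not known, and the deposited loci of Car1 and Gata1 end elsewhere than these genes in GENCODE vM1. An error in the length would change the fragments and the width of the intervals. The estimate was tried on simulated data, where 28 of 28 runs came within 5% of the simulated depth. Those values lay on exact steps of the same transcript lengths. In the deposited values, 4.85% (WT CLP) to 8.74% (WT HSC) lay below the step of 1 fragment. The runs therefore do not show how exact the depth is for these libraries.

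The genes named were all members and Grk6, the 6 genes most like each of Hba-a2, Klf1 and Car1, the 3 genes of highest FPKM on each list, listed genes without a row in some libraries, and Kit, Ly6a and Il7r. Jak2, Gfi1b, Zfpm1, Car3 and Car13 were added after their values were seen, as was TGATAA as a motif. Some genes of the lists are not reported here and were left out of the counts. The members and lists were chosen with earlier results of these data known. Alternatives were another pseudocount, filter, scaling, threshold and handling of repeated and shared rows. Promoters came from RefSeq (GRCm38.p6) and were placed in mm9 by exact match. The computations ran in Python 3.11.15 with scipy 1.17.1, pandas 2.3.3 and numpy 2.4.6, and matplotlib 3.10.9 drew the figures.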

Additional observations from a re-analysis of the deposited data

Results flagged for a closer look

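Of 70 listed genes outside the set that were measured in both populations, 10 differed by at least 2-fold in opposite directions in HSC and CLP between the library labelled GRK6-/- and WT, 6 of them higher in HSC and 4 higher in CLP. The 4 of these that are named in the text are given here. Whether HSC and CLP differ in this was not tested, as there was 1 library per group. The share of all genes with such opposite differences is not given here. Among all genes, 19.3% were at least 2-fold higher and 18.0% lower in HSC, and 26.6% higher and 23.4% lower in CLP. The log2 difference of FPKM + 1 was 1.84 in HSC and -2.17 in CLP for Car9, a membrane-bound carbonic anhydrase. For Mt1, a metallothionein, it was 1.4 in HSC and -1.04 in CLP. Stat5a had 1.31 in HSC and -3.05 in CLP. Jak2, named after its values were seen, had -1.04 in HSC and 3.35 in CLP, and it had no row in WT CLP. None of the 8 members with a row behaved in this way, but they were chosen on these contrasts, so nothing is read from this.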

How the results depend on the processing

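The counts of 8 members at least 2-fold higher and 0 lower in each population were the same under a pseudocount of 0.1, a filter of 1 FPKM, both rescalings, the highest row per symbol and shared rows given to each gene. At a 4-fold threshold 6 were higher in HSC (6.07% of all genes) and 8 in CLP (13.5%). All 96 recomputed log2 differences of members kept their sign over these 6 alternatives, though sizes moved. The filter, the highest row per symbol and the shared rows left every member value as it was. Only the pseudocount and both rescalings could therefore move a member, and the members were chosen for these differences. A pseudocount of 0.1 gave 10.32 in place of 7.01 for Alas2, 8.14 in place of 6.00 for Klf1 and 5.03 in place of 2.90 for Epor in CLP. Car2 moved from 1.67 to 1.52 in HSC and from 2.09 to 2.30 in CLP under scaling to the same FPKM sum without globins. Both values lay outside the counting intervals of its ratios. The intervals given above are for ratios of FPKM with nothing added. With 1 added, the differences of Klf1, Gata1 and Epor in CLP fell below the lower limits of those intervals. Scaling to the same FPKM sum without globins moved the median log2 difference of all genes in CLP from 0.05 to 0.19 and in HSC to -0.06. The alpha to beta ratios did not change with either alternative, and no shared row named a globin. Pairing WT with GRK6-/- within each population would leave 1 residual degree of freedom over 2 pairs, and no such fit was made for genes chosen on these contrasts. No group kept a library when its own was left out. At this depth a value of 1 to 3 fragments, as for Klf1, Gata1 and Epor in WT CLP and Alas2 in WT HSC, cannot be told from a lower level.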
